A study of Mus musculus with 4 samples.

Results

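The Hox genes code for transcription factors that bind DNA through a homeodomain and lie in 4 clusters, named a, b, c and d. The 38 of them described here were taken by exact gene symbol from the 42458 genes of the deposited count table: 10 each of clusters a and b, and 9 each of clusters c and d. At least 10 counts over all libraries were recorded for 30 of the 38, and these were among the 18522 genes with a level test. RNA was sequenced from 50 sorted cells of each of 4 mice, so each mouse is 1 library and the 4 libraries form 1 group. All mice were of genotype C57BL6 and had AAV2-CAG-tdT, a virus in which the general CAG promoter drives the red protein tdTomato, put into a brain ventricle. The labels state that the tissue was spinal cord slices with the ependymal region, and that the sort for tdTomato was set against an uninjected C57BL6 preparation and enriched cerebrospinal fluid-contacting neurons (CSF-cNs), which line the central canal. No age, and no level of the cord that the slices came from, is given in the sources used here.

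Hox genes are numbered by paralogue group. In the embryo, low-numbered groups are switched on from the hindbrain backwards, and higher-numbered groups begin further toward the tail. The order along the body follows the order along the chromosome, so the set of groups in use marks a cell's level along the cord, and in the spinal cord Hox factors are best known for setting motor neuron subtypes at limb and trunk levels. Many mature neurons and glia keep part of this pattern, while cells that enter the nervous system from elsewhere, such as microglia, do not take theirs from the neural tube.

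Mice 1, 2, 3 and 4 had 115479640, 95186395, 83007030 and 85626022 counts in total, and every list of 4 values below follows that order. Levels are in CPM, the counts of a gene scaled to one fixed library total, with the TMM factors of edgeR. A level of 3 counts, taken here as the floor of detection, corresponds to 0.0278, 0.0321, 0.0348 and 0.0334 CPM. The libraries carry no molecular identifiers, so intervals and floors cover counting error only. The libraries of mice 1 and 2 stood apart: the transgene row AAV2.CAG.tdT held 5, 58, 13533 and 153379 counts. The 8 CSF-cN markers summed to 20.3, 12.9, 941 and 846 CPM, against 47840, 51543, 30699 and 44149 CPM for the 10 microglial markers, which were all above the floor in every library. The CSF-cN sum was thus below the microglial sum in all 4 libraries, and in these bulk samples fewer cells of a type and less RNA per cell cannot be told apart.

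The homeobox is the stretch of coding sequence for the DNA-binding homeodomain. The reference homeoboxes of Hoxa10 and Hoxd10 are shown, because these genes of group 10 set mouse 3 apart from mouse 4. Each is given in reading direction (GRCm38, 180 bases), with the 18 bases for the core of the recognition helix, the part that lies in the major groove of DNA, in capitals. Hoxa10 lies at chr6:52232554-52232733 on the minus strand and Hoxd10 at chr2:74694141-74694320 on the plus strand.
Hoxa10: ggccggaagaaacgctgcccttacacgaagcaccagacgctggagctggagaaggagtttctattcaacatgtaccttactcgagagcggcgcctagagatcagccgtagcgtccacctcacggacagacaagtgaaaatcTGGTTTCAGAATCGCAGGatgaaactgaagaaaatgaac
Hoxd10: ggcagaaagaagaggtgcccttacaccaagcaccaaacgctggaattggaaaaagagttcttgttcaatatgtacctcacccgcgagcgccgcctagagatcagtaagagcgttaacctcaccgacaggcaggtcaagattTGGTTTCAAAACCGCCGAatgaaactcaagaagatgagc

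Hoxa10 and Hoxd10 shared 78.9% of the 180 bases. Over the 40 pairs of one paralogue group the median identity was 80.6% (67.2% to 93.9%), against 60.6% (46.1% to 88.9%) over the 663 pairs of different groups. The longest run of identical bases between the coding sequences of any pair was 52 bases, between Hoxa6 and Hoxb4. How reads within such runs were shared out is not given in the sources used here. Both printed homeoboxes lie in 1 exon each.

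The RefSeq promoter table (GRCm38.p6) held 24 promoters of 22 of the 38 genes. The promoters of Hoxa9, found in mice 3 and 4, and of Hoxd10, found in mouse 3 alone, are shown. They run from 250 bases before to 50 bases after the listed start, in reading direction, with CG dinucleotides in capitals.
Hoxa9 (chr6:52227321-52227620, minus strand): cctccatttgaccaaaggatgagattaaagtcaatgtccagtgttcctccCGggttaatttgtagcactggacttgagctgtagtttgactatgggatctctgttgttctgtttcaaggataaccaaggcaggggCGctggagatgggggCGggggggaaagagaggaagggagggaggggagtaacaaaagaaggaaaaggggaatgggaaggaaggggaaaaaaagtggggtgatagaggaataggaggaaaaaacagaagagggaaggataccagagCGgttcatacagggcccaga
Hoxd10 (chr2:74691641-74691940, plus strand): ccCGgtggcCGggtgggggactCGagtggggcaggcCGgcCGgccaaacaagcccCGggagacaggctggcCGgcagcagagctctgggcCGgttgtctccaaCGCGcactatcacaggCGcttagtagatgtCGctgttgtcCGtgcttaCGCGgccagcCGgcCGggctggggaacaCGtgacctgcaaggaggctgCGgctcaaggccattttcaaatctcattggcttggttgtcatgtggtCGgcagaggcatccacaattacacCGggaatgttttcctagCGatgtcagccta

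The Hoxa9 promoter held 4 CG dinucleotides, the lowest number among the 24 and shared with a promoter each of Hoxd4 and Hoxd11, and the Hoxd10 promoter held 22. The median was 14.5 over the 24 Hox promoters, against 7 over all 32851 promoters of the table. The motif CCAAT, searched on both strands, was present in 15 of the 24 (62.5%), against 37.4% of all promoters. TATAAA was present in 16.7% of the Hox promoters and 13.6% of all. These are descriptions of sequence and carry no information on which factor was bound.

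Hox transcripts were sparse in these cells, and most of them came from mice 3 and 4. Of the 38 genes, 6, 4, 28 and 19 had more than 3 counts (mean 14.2 ± 11.3, SD, n = 4). Their levels summed to 19.1, 4.40, 162 and 116 CPM (mean 75.3 ± 75.9, SD, n = 4). Both measures were lower in mice 1 and 2 than in mice 3 and 4, with no overlap. Over all tested genes the share above the floor was 76.9%, 75.8%, 87.2% and 81.6%, a narrower range than the 20%, 13.3%, 90% and 63.3% of the 30 tested Hox genes. The Hox shares are partly set by the filter on total counts. Of the 30, 8 were above the floor in mouse 3 alone and 11 in mice 3 and 4 alone. Their median mean level was also lower, at 1.26 CPM against 9.52 CPM over all tested genes. The transgene and the CSF-cN markers were low in mice 1 and 2 as well. Their part in the Hox levels was not tested.

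Hox genes were close to on or off in a given library. Of the 152 values of a gene in a mouse, 86 were 0, 9 were 1 to 3 counts, 9 were 4 to 30 counts and 48 were above 30 counts. The same split over all tested genes is not given here. The ratio of run 1 to run 2 was 0.731 to 2.08 over those 48 values (median 1.02). No value above the floor lacked a count in 1 of the runs. Both runs of a mouse were taken as repeats of 1 library, so their agreement covers the sequencing step alone. The widest ratio was that of Hoxa7 in mouse 2, with 27 and 13 counts.

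None of the 30 tested Hox genes was above the floor in all 4 mice, against 62.6% of all tested genes. The commonest pattern was detection in mice 3 and 4 alone, seen for 11 genes (36.7% of the 30, against 4.89% of all tested genes). Detection in mouse 3 alone followed, with 9 genes, of which 8 were tested (26.7%, against 6.09% of all). Such genes passed the filter on total counts through that library. Mouse 3 had the highest level for 16 of the 30 and mouse 4 for 13. The one exception was Hoxc5, highest in mouse 2. Among all tested genes, mice 1, 2, 3 and 4 had the highest level of 21.7%, 25.5%, 29.5% and 23.2%.

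**Figure D1:**
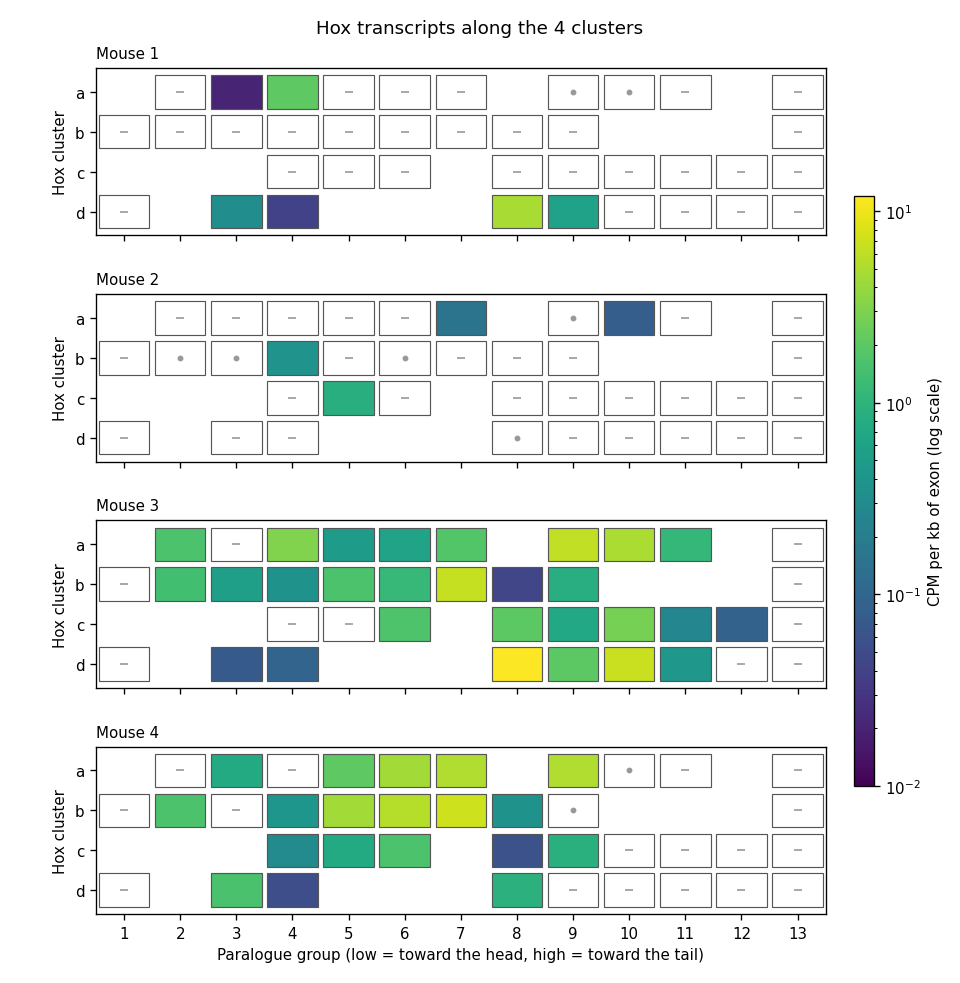
Each box is 1 of the 38 Hox genes, placed by cluster (vertical) and paralogue group (horizontal), with 1 panel per mouse; colour gives CPM per kb of exon on a log scale, white boxes had 3 counts or fewer (dash, no count; dot, 1 to 3 counts), and an unboxed place holds no gene described here. Boxes are filled for 6, 4, 28 and 19 genes in mice 1 to 4, and groups 11 and 12 are filled in mouse 3 alone.

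Groups 1 to 3 are the anterior genes of the clusters, whose first domains lie in the hindbrain and upper neck. Hoxb1, a hindbrain segment gene, and Hoxd1, which is known in mouse from pain-sensing neurons, had no count in any mouse. Hoxa2, needed for the identity of the second branchial arch, was detected in mouse 3 alone, at 0, 0, 2.90 and 0 CPM. Its paralogue Hoxb2, which acts in hindbrain segments and the facial motor nucleus, was at 0, 0.0107, 4.95 and 5.56 CPM. Thus mice 3 and 4 both held Hoxb2, and mouse 3 held Hoxa2 as well.

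The genes of group 3 were detected in different sets of mice. Hoxa3, known from the thymus and parathyroid, was at 0.120, 0, 0 and 4.47 CPM. Hoxb3, which acts with it in hindbrain motor neurons, was at 0, 0.0107, 2.25 and 0 CPM. Hoxd3, known from the upper neck vertebrae, was at 1.32, 0, 0.301 and 6.62 CPM. In no mouse were both Hoxa3 and Hoxb3 above the floor. The libraries do not keep the strand, and Hoxa3, Hoxb2, Hoxb3, Hoxd3, Hoxd4 and Hoxa11 share 27.1%, 27.3%, 52.9%, 62.8%, 52.3% and 35% of their exon bases with other genes of their cluster, so reads of these 6 genes and their partners cannot be told apart there.

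Groups 4 and 5 act at neck and forelimb levels. Hoxa4 was at 3.31, 0, 4.97 and 0 CPM, and shared detection in mice 1 and 3 alone with Hoxd9. Hoxb4, known also from blood stem cells, was at 0, 0.974, 0.962 and 1.06 CPM, the narrowest range, as a ratio, among the 5 genes detected in 3 mice. Hoxc4 was above the floor in mouse 4 alone, at 0.735 CPM, and Hoxd4 was at 0.120, 0, 0.278 and 0.156 CPM. Of group 5, in which Hoxa5 and Hoxc5 act in the motor neurons of the diaphragm, Hoxa5 was at 0, 0, 0.916 and 3.83 CPM and Hoxb5 at 0, 0, 4.52 and 12.7 CPM. Hoxc5 was at 0, 2.68, 0 and 2.27 CPM. It was the highest Hox gene of mouse 2, where it made up 60.8% of the summed CPM.

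Groups 6 and 7 act at forelimb and trunk levels, and here mouse 4 had the highest value of 4 of the 5 genes. Hoxa6 was at 0, 0, 0.533 and 3.94 CPM and Hoxb6 at 0, 0.0107, 2.27 and 10.6 CPM. Hoxc6, a marker of forelimb-level motor columns, was nearly equal in mice 3 and 4, at 0, 0, 3.96 and 3.88 CPM. Hoxa7 was at 0, 0.428, 5.01 and 15.0 CPM and Hoxb7 at 0, 0, 9.93 and 10.8 CPM. All 5 genes were above the floor in mice 3 and 4 and absent from mouse 1.

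Group 8 was led by its member of cluster d. Hoxd8 was at 12.9, 0.0107, 31.2 and 2.55 CPM, and it made up 67.7% of the Hox sum of mouse 1. Hoxb8, whose loss in mouse leads to excessive grooming, was at 0, 0, 0.116 and 0.969 CPM. Hoxc8, which helps set motor pools of the forelimb, was at 0, 0, 5.68 and 0.167 CPM. Hoxc8 and Hoxd8 were thus higher in mouse 3 than in mouse 4, and Hoxb8 was lower.

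Group 9 was the highest group above the floor in mouse 4. Hoxa9 was at 0.0185, 0.0107, 34.3 and 28.5 CPM, so that mice 1 and 2 were below the floor. The 95% intervals of its level in mice 3 and 4 were 33.1 to 35.5 and 27.4 to 29.7 CPM. Hoxc9, the factor that sets trunk motor neurons apart from those of the forelimb, was at 0, 0, 1.72 and 2.22 CPM. Hoxb9 reached 2.20 CPM in mouse 3, against a single count in mouse 4 (0.0111 CPM). Hoxd9 was at 1.27, 0, 4.28 and 0 CPM. Hoxa9 and Hoxc9 were thus detected in mice 3 and 4, while Hoxb9 and Hoxd9 were not above the floor in mouse 4.

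**Figure D2:**
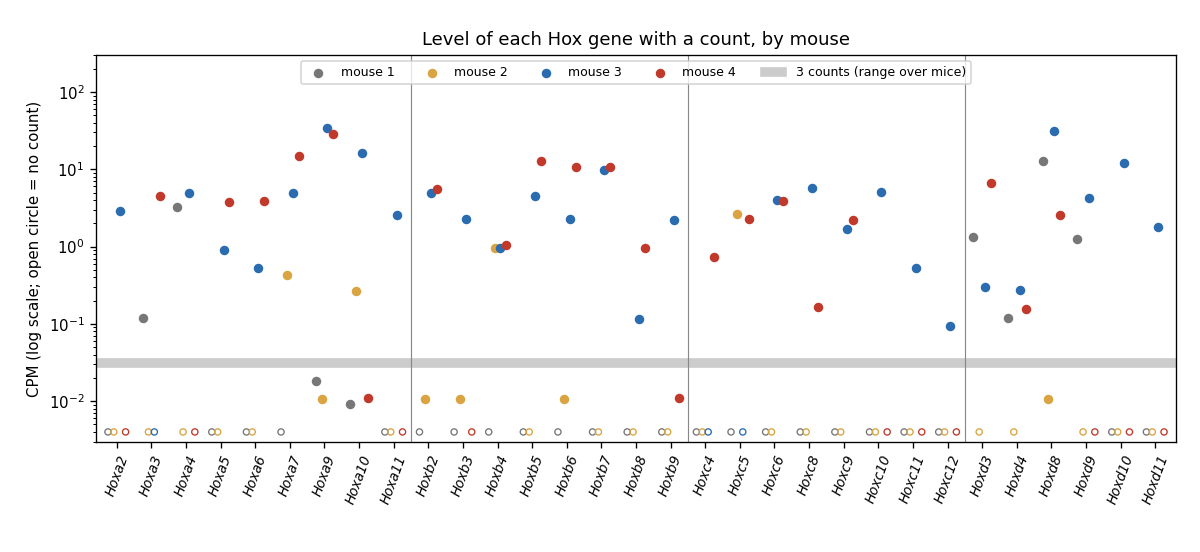
Level of each of the 31 Hox genes with a count, in CPM on a log scale, with 1 point per mouse; open circles at the bottom are values of 0, the grey band is the level of 3 counts, and vertical lines part the clusters a to d. Hoxa9 stood at 34.3 and 28.5 CPM in mice 3 and 4 and below the band in mice 1 and 2, while Hoxa10, Hoxc10 and Hoxd10 stood above 5 CPM in mouse 3 alone.

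Groups 10 to 13 act at hindlimb, sacral and tail levels, and mouse 3 held nearly all of their transcripts. The 12 genes of these groups had 1, 25, 3306 and 1 counts together, or 0.00926, 0.268, 38.3 and 0.0111 CPM. The 95% intervals were 37.0 to 39.7 CPM in mouse 3 and 0.000282 to 0.0621 CPM in mouse 4. In mouse 3, 7 of the 12 were above the floor, and in mouse 2 the single one was Hoxa10. Mouse 4 thus had 1 count of these genes among the 10424 counts of its 38 Hox genes.

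Hoxa10, which with its paralogues sets hindlimb-level motor columns, was at 0.00926, 0.268, 16.1 and 0.0111 CPM. Hoxd10, which acts in the same motor neurons, was at 0, 0, 12.1 and 0 CPM, and Hoxc10, also of group 10, at 0, 0, 5.14 and 0 CPM. Of group 11, known from the kidney and the hindlimb skeleton, Hoxa11 reached 2.58 CPM, Hoxc11 0.522 CPM and Hoxd11 1.82 CPM in mouse 3, with no count elsewhere. Hoxc12 had 8 counts in mouse 3 (0.0927 CPM). Group 13 closes the body axis and shapes the digits and genital tubercle. Hoxa13, Hoxb13, Hoxc13 and Hoxd13 had no count in any mouse, nor had Hoxd12. With Hoxb1 and Hoxd1 this makes 7 of the 38 genes with no count, which lie at both ends of the clusters.

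Read along each cluster, the detected genes reached furthest in mouse 3. In cluster a they ran from paralogue group 3 to 4 in mouse 1, 7 to 10 in mouse 2, 2 to 11 in mouse 3 and 3 to 9 in mouse 4. In cluster b mouse 1 had none, mouse 2 had Hoxb4 alone, mouse 3 ran from 2 to 9 and mouse 4 from 2 to 8. In cluster c mouse 1 had none, mouse 2 had Hoxc5 alone, mouse 3 ran from 6 to 12 and mouse 4 from 4 to 9. In cluster d they ran from 3 to 9 in mouse 1, 3 to 11 in mouse 3 and 3 to 8 in mouse 4, and mouse 2 had none. In all 4 clusters the highest detected group was thus higher in mouse 3 than in mouse 4. The runs had gaps: Hoxa9 was not above the floor in mouse 2, Hoxa3 in mouse 3, and Hoxa4 and Hoxb3 in mouse 4.

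To compare genes with each other, CPM were divided by the length of the merged exons in kb. The per-length sum over all 38 genes was 7.75, 1.49, 60.3 and 43.2 CPM per kb. Groups 1 to 3 (7 genes) gave 0.336, 0.00559, 3.65 and 3.92 CPM per kb, groups 4 to 8 (15 genes) 6.82, 1.40, 30.7 and 33.2, and groups 9 to 13 (16 genes) 0.600, 0.0837, 25.9 and 6.03. On this scale the sums of mice 3 and 4 were close in the anterior and middle classes and parted in the posterior class. Single groups within the first 2 classes differed in both directions. Groups 2, 4 and 8 were higher in mouse 3, and groups 3, 5, 6 and 7 in mouse 4. Group 8 was at 13.4 and 1.36 CPM per kb in mice 3 and 4, and group 6 at 3.41 and 11.5. The posterior class made up 7.74%, 5.61%, 43.0% and 13.98% of the per-length sum (mean 17.6 ± 17.3, SD, n = 4), and the middle class 87.9%, 94.0%, 51.0% and 76.9% (mean 77.5 ± 19.0, SD, n = 4). The posterior share of mice 3 and 4 depended on the length used: it was 45.2% and 18.4% with the longest transcript, 46.96% and 26.9% with coding length, and 50.0% and 26.5% with no length scaling. It was higher in mouse 3 on all 4 scales. With merged exons the ratio of the posterior to the middle class was 0.0880, 0.0596, 0.843 and 0.182. In mice 1 and 2 these shares rest on few genes, since 6 and 4 genes were detected.

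The level by paralogue group, per kb of merged exons, had different peaks in the mice. Group 10 was the highest of mouse 3, at 14.3 CPM per kb, followed by group 8 at 13.4. Group 7 was the highest of mouse 4, at 12.2 CPM per kb, followed by group 6 at 11.5. Group 10 of mouse 4 was at 0.00341 CPM per kb. Mouse 1 peaked at group 8, at 4.70 CPM per kb, all of it Hoxd8, and mouse 2 at group 5, at 0.866 CPM per kb, all of it Hoxc5. The peaks of mice 3 and 4 depended on the scale. With no length scaling both peaked at group 9, at 42.5 and 30.8 CPM, and with coding length too, at 51.5 and 37.96 CPM per kb. The drop at group 10 did not depend on it: with no length scaling group 10 was at 33.3 CPM in mouse 3 and 0.0111 CPM in mouse 4.

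**Figure D3:**
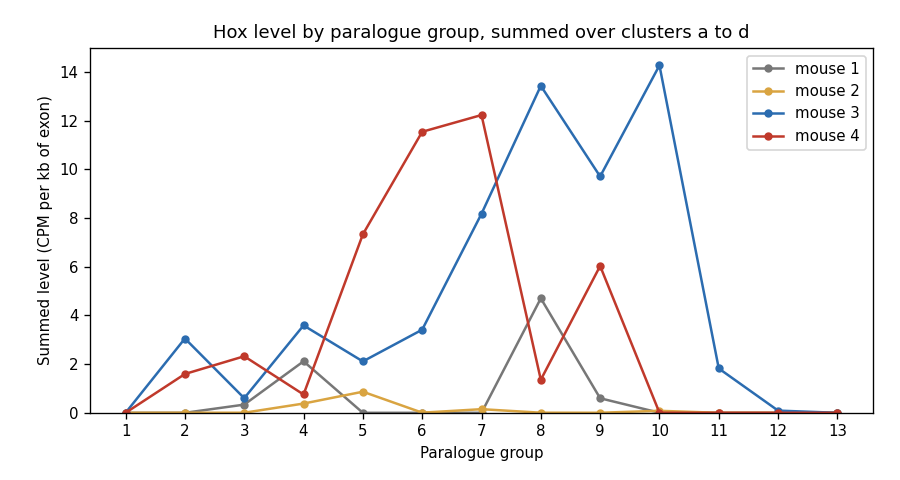
Summed level of the Hox genes of each paralogue group over clusters a to d, in CPM per kb of exon, with 1 line per mouse. Mouse 4 peaks at group 7 (12.2 CPM per kb) and drops to 0.00341 at group 10, where mouse 3 peaks at 14.3; with coding length or no length scaling both mice peak at group 9.

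**Figure D4:**
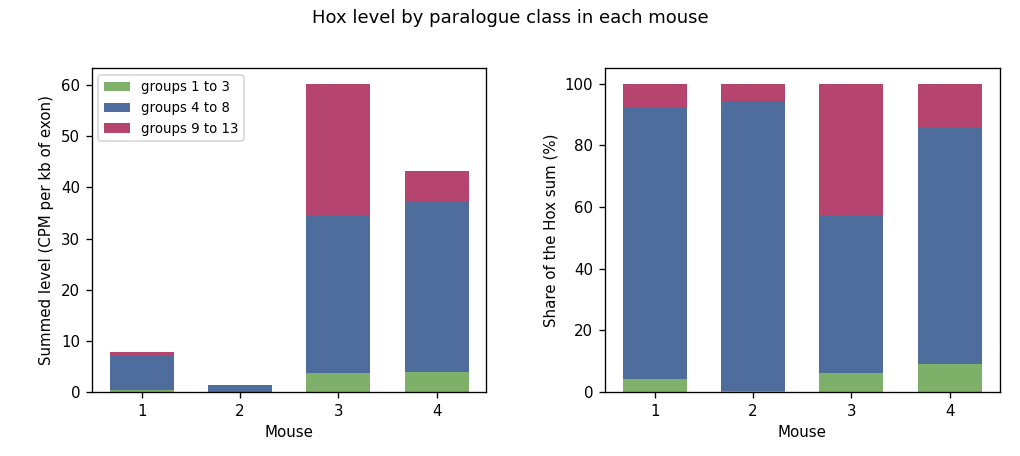
Per-length Hox level of each mouse stacked by paralogue class (left, CPM per kb of exon) and as a share of its Hox sum (right, percent). Groups 9 to 13 make up 43.0% in mouse 3 and 13.98% in mouse 4 (50.0% and 26.5% with no length scaling), and the bars of mice 1 and 2 total 7.75 and 1.49 CPM per kb.

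The clusters also took unequal parts. Cluster a gave 27.1%, 15.6%, 32.8% and 40.9% of the per-length sum, the narrowest range of the 4. Cluster b gave 0%, 26.2%, 20.6% and 44.8%, and cluster c gave 0%, 58.0%, 12.3% and 8.35%. Cluster d gave 72.9%, 0.261%, 34.3% and 5.94%. Mouse 1 thus drew on clusters a and d alone, and mouse 4 on clusters a and b for most of its sum.

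The level tests asked whether the mean level over the 4 mice differed from 10 CPM or from 1 CPM, with edgeR's quasi-likelihood test and Benjamini-Hochberg adjustment over all 18522 genes. None of the 30 tested Hox genes was above 10 CPM, against 36.7% of all tested genes, and none was below it, against 0.664% of all. No Hox gene had an unadjusted p under 0.05 against 10 CPM, and the lowest adjusted p was 0.121. With limma-voom 0 were above and 22 below 10 CPM, against 35.9% of all genes above and 33.3% below. DESeq2 called 0 above and 2 below, against 39.5% and 13.1% of all genes with an adjusted p, which DESeq2 gave here for 11 of the 30. The spread between mice was wide: the median coefficient of variation was 1.55 over the 30 Hox genes and 0.662 over all tested genes, and the median mean level was 1.26 against 9.52 CPM.

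Against 1 CPM, 2 Hox genes were above by edgeR (adjusted p under the threshold of 0.05), against 59.1% of all tested genes, and none was below it, against 0.0324%. Hoxa9 had a mean of 15.7 ± 18.3 CPM (SD, n = 4) and a log2 level of 3.97 ± 0.82 (SE) over 1 CPM, with an edgeR adjusted p of 0.00478, and it exceeded 1 CPM in 2 of 4 mice. Hoxd8 had a mean of 11.7 ± 14.2 CPM (SD, n = 4) and a log2 level of 3.54 ± 0.70 (SE), with an edgeR adjusted p of 0.00382, and it exceeded 1 CPM in 3 of 4 mice. Without mouse 3 neither passed. DESeq2 also called 2 above 1 CPM (68.4% of all genes with an adjusted p). With limma-voom 0 were above 1 CPM, against 53.1% of all genes, and 7 were below it, against 14.5%. This tool averages logarithms, and it put Hoxa9 at -0.56 on the log2 scale (adjusted p 0.835).

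Without mice 1 and 2, Hoxa9 was above 10 CPM (log2 level 1.71, edgeR adjusted p 0.00658), against 37% of all genes. In the same fit Hoxa7, Hoxa9, Hoxb2, Hoxb5, Hoxb6, Hoxb7 and Hoxd8 were above 1 CPM, 7 genes, against 62.9% of all genes. This fit rests on 2 libraries that were chosen with their transgene counts known. It left out mice 1 and 2, whose Hox sums of 19.1 and 4.40 CPM were the lowest. A rise in Hox calls was thus fixed by the choice and is not read as a result.

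Some cell type markers differed between mice 3 and 4 beside the posterior Hox genes. The 10 oligodendrocyte markers summed to 14827, 236, 19055 and 454 CPM. All 10 were higher in mouse 3 than in mouse 4. Mouse 1 had an oligodendrocyte sum near that of mouse 3. The 8 astrocyte markers summed to 1253, 161, 1347 and 299 CPM, most of it from Aldoc (835, 11.6, 846 and 118 CPM) and S100b (298, 4.20, 440 and 10.5 CPM). Of the 8, 5 were higher and 3 lower in mouse 3 than in mouse 4, the lower ones being Slc1a3, Aqp4 and Gja1. The 5 fibroblast markers summed to 8.37, 0.107, 994 and 109 CPM, nearly all of it in mice 3 and 4 from the matrix gene Dcn, at 989 and 108 CPM. The collagen genes Col1a1 and Col3a1 had no count in any mouse, and 2, 1, 2 and 2 of the 5 were above the floor. The share of all tested genes that were higher in mouse 3 than in mouse 4 is not given here. The part of these cells in the Hox levels was not tested.

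The ependymal and pan-neuronal sums were higher in mice 3 and 4 than in mice 1 and 2. The 8 ependymal markers, of the ciliated cells that line the canal, summed to 0.00926, 0.503, 15.7 and 66.4 CPM, with 0, 2, 5 and 8 of them above the floor. The 9 pan-neuronal markers summed to 129, 88.4, 1062 and 369 CPM. Of single genes, 5 of the 8 ependymal and 6 of the 9 pan-neuronal markers were higher in both mice 3 and 4 than in both mice 1 and 2. The share of all tested genes with this order is not given here, so these counts are not read as particular to the lists. Of the rest, Nefl was highest in mouse 2, at 14.5 CPM. The Hox sum was also lower in mice 1 and 2, and its link to these sums was not tested. Which cells the Hox transcripts came from cannot be told from these bulk libraries.

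**Figure D5:**
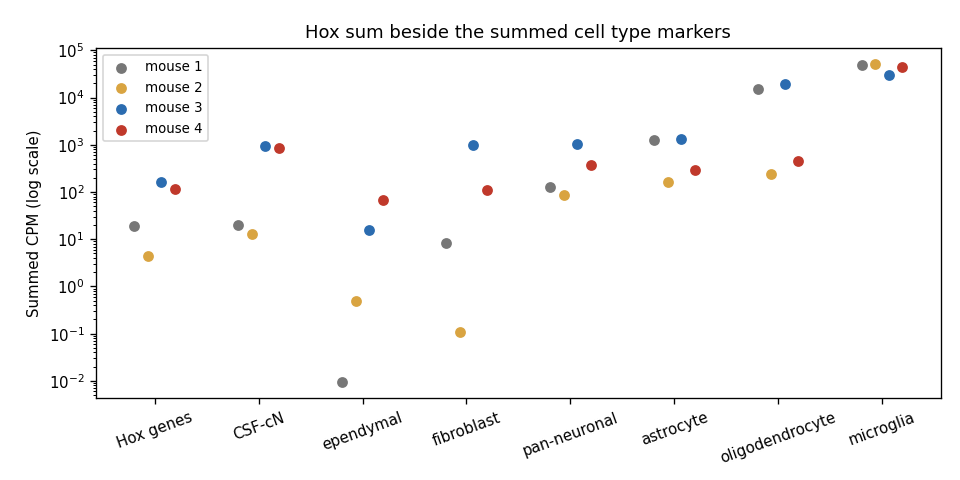
Summed CPM of the 38 Hox genes and of each cell type marker list, on a log scale, with 1 point per mouse. The Hox sum, at 162 and 116 CPM in mice 3 and 4 and 19.1 and 4.40 in mice 1 and 2, lay among the low sums, and microglial markers lay at 30699 to 51543 CPM in all 4.

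Hox proteins bind DNA together with TALE homeodomain cofactors of the Pbx, Meis and Pknox families. Of the 9 tested, 3 were above 10 CPM by edgeR (33.3%, against 36.7% of all tested genes) and 6 above 1 CPM (66.7%, against 59.1%), shares near those of all genes. By limma-voom 4 of the 9 were above 1 CPM, against 53.1% of all tested genes. Pknox1 averaged 58.1 ± 11.3 CPM, Meis3 44.9 ± 6.45 CPM and Pbx3 22.5 ± 11.1 CPM (SD, n = 4). All 3 were above the floor in every mouse, mice 1 and 2 included, which held for no Hox gene. Meis2, taken up after its values were seen, was at 0.0278, 2.74, 61.2 and 23.2 CPM. It was among the 4 of the 9 genes that were higher in both mice 3 and 4 than in both mice 1 and 2. The share of all tested genes with this order is not given here, so the count is not read as particular to the list.

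Chromatin regulators keep Hox clusters open or silent through the Trithorax and Polycomb groups. Of the 21 genes on this list 18 were tested, 7 were above 10 CPM by edgeR (38.9%, against 36.7% of all tested genes) and 16 above 1 CPM (88.9%, against 59.1%). By limma-voom 14 of the 18 were above 1 CPM, against 53.1% of all tested genes. Those highest on average were Polycomb genes: Rnf2, the ubiquitin ligase of the first Polycomb complex, at 118 ± 14.6 CPM, its partner Bmi1 at 74.2 ± 40.6 CPM, and Eed, of the second complex, at 74.0 ± 14.03 CPM (SD, n = 4). They too were above the floor in all 4 mice. Cdx1, Cdx2 and Cdx4, the embryonic activators of posterior Hox genes, had no count.

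Retinoic acid sets the anterior Hox genes in the embryo. Of 12 genes on its list 6 were tested. None was above 10 CPM by edgeR or limma-voom, against 36.7% and 35.9% of all tested genes. Rdh10 and Crabp1 were above 1 CPM by edgeR (33.3%, against 59.1% of all tested genes). Rdh10, which makes the precursor of retinoic acid, averaged 10.8 ± 10.3 CPM. Crabp1, which carries retinoic acid in the cell, was at 0, 0, 6.61 and 27.6 CPM and its call was absent under limma-voom (adjusted p 0.50). Rarb, a receptor that retinoic acid itself induces, was at 0, 0.0107, 0.255 and 7.29 CPM.

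Genes that pattern the brain in front of the Hox domains were nearly absent. Of 10 such genes 1 was tested and 7 had no count, and Otx1 had at most 2 counts in a mouse. En2, of the midbrain and front hindbrain, had 368 counts in mouse 1 (3.41 CPM) and none in the others.

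The noncoding genes of the clusters were sparse: 7 of 16 were tested, and none was above 10 or 1 CPM by edgeR or limma-voom. Of all tested genes, 36.7% (edgeR) and 35.9% (limma-voom) were above 10 CPM, and 59.1% and 53.1% above 1 CPM. Haglr, within cluster d, was at 1.42, 0, 1.92 and 0.691 CPM, the mice with Hoxd3 and Hoxd8. Hoxd3os1 was at 0.352, 0, 0.800 and 0.0780 CPM in the same mice. Hoxaas2 was at 2.28, 0, 0.568 and 0.0223 CPM and Hotairm1 at 0.222, 0.0535, 0.383 and 0 CPM. Hoxa11os was found in mouse 3 alone, at 2.01 CPM, as its partner Hoxa11 was. Hoxa11os shares exon bases with Hoxa11, and Haglr and Hoxd3os1 share exon bases with Hoxd3. The libraries do not keep the strand, so reads of these shared bases cannot be told apart. Hotair, which lies in cluster c between Hoxc11 and Hoxc12, had 8 counts, all in mouse 3. Hoxb5os was at 0, 0, 0.313 and 0.579 CPM and Hoxb3os at 0, 0, 0.139 and 0.134 CPM.

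Of the 12 flanking genes with values, 6 were above the floor in every mouse. Of the 9 tested, the same 6 were above 10 CPM by edgeR (66.7%, against 36.7% of all tested genes). These were Skap2 at 180 ± 45.1 CPM and Hibadh at 115 ± 37.9 CPM beside cluster a, Mtx2 at 57.9 ± 13.3 CPM and Lnpk at 43.8 ± 22.7 CPM beside cluster d, and Cbx5 at 29.6 ± 21.1 CPM and Calcoco1 at 26.7 ± 6.48 CPM beside cluster c (SD, n = 4). Skap1 was found in mouse 3 at 1.54 CPM and Ttll6 in mouse 4 at 2.55 CPM, both beside cluster b, and Smug1, beside cluster c, was at 0, 4.33, 4.36 and 4.97 CPM. Evx1 and Evx2, homeobox genes at the posterior ends of clusters a and d, were at or below 2 counts in every mouse.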

How the data were processed

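Per the labels' protocols, cells were lysed, cDNA was made by SMART-Seq v4 with 11 PCR cycles, and libraries by Nextera XT, which cover whole transcripts and do not keep the strand. The counts that the authors deposited are whole numbers for 42458 genes, in 2 columns per mouse, beside a table of log2 normalized counts per mouse. The build was mm10, and the tools named were STAR, RSEM, DESeq2, Trim Galore and FastQC, per the submitters' processing notes. What each did, in which version, on which annotation and with what rounding is not given in the sources used here. Columns numbered 1 to 4 were read as mice 1 to 4. The columns of a mouse differed by a mean chi-square of 1.95 to 2.21 per gene, where counting error alone gives about 1, and were summed as repeat runs, so n is 4.

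The deposited log2 values equal log2 of the summed counts over a size factor, plus 1, and served only as an alternative. All genes were named, and every value column had a sample. CPM used TMM factors of 0.935, 0.982, 1.04 and 1.05. The level test was an intercept-only quasi-likelihood fit in edgeR 4.0.16 (R 4.3.3) with an offset for 10 or 1 CPM, over the 18522 genes with at least 10 counts in total, Benjamini-Hochberg adjusted, with a threshold of 0.05. The SE is the log2 level over the square root of F. Because the model averages counts, a gene may pass while low in some mice. P-values rest on a spread between mice that the fit shares across genes of similar level, and not on the gene's own 4 values alone. On simulated data with 50 genes at each level, 34 were recovered at 40 CPM against 10 CPM and 36 at 8 CPM against 1 CPM. Of 2000 genes set at the tested level itself, 63 were called against 10 CPM and 70 against 1 CPM. The simulation gave all 4 mice the same mean, unlike most Hox genes here, so it does not show how the test treats those.

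Exon lengths, gene positions and homeobox sequences were read from GENCODE M21 (GRCm38, which is mm10). Homeoboxes were found in the annotated reading frame by the residues WFQNRR. Promoters come from the RefSeq table. Intervals are 95% Clopper-Pearson. Other tools were DESeq2 1.42.0, limma 3.58.1, Python 3.11.15, scipy 1.17.1, pandas 2.3.3, numpy 2.4.6 and matplotlib 3.10.9. Alternatives were size factors, library totals, no filter, limma-voom, DESeq2, each run alone, each mouse left out, mice 1 and 2 left out, other lengths and other class limits. All Hox genes of the list were named, with the 3 highest genes by mean CPM of each cofactor, regulator, retinoic acid and brain list (1 gene that this takes is not reported here), and every noncoding or flanking gene above 3 counts in a mouse. Meis2, Otx1, Cdx1, Cdx2, Cdx4, Evx1 and Evx2 were named after their values were seen. The genes and lists were chosen with earlier results of these data known.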

Additional observations from a re-analysis of the deposited data

Results flagged for a closer look

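In 15 of the 30 tested Hox genes (50%) 1 mouse lay far from the other 3, by a rule on the gap to the nearest value. Chance meets it in about 1 in 20 groups of 4 normal values, but 22.1% of all tested genes met it here. A gene with counts in 1 mouse alone meets it by construction, which holds for 7 of the 15. Mouse 3 was the distant one for 10 of them: Hoxa2 at 2.90 CPM, Hoxa10 at 16.1, Hoxa11 at 2.58, Hoxb3 at 2.25, Hoxb9 at 2.20, Hoxc8 at 5.68, Hoxc10 at 5.14, Hoxc11 at 0.522, Hoxd10 at 12.1 and Hoxd11 at 1.82 CPM. Of these 10, 6 belong to groups 10 and 11. Mouse 4 was the distant one for Hoxa3 at 4.47 CPM, Hoxa6 at 3.94, Hoxb8 at 0.969 and Hoxc4 at 0.735 CPM. Mouse 1 was the distant one for Hoxb4, at 0 CPM where the other 3 mice had 0.974, 0.962 and 1.06 CPM. The cause was not tested.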

How the results depend on the processing

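The count of Hox genes above 10 CPM was 0 under every alternative but 1: without mice 1 and 2 it was 1. Leaving out mice 1 and 2 drops the libraries with the lowest Hox sums, so higher counts there are fixed by the choice. The count above 1 CPM was 2, and it was 0 with limma-voom, 7 without mice 1 and 2, and 0 to 3 with each mouse left out (0 without mouse 3, 3 without mouse 1, where Hoxa7 joined). Hoxa9 against 1 CPM turned to -0.56 (log2) with limma-voom. With coding length, which is shorter than exon length by construction, the mean per-length sums were 5.94, 50.8 and 31.5 CPM per kb for groups 1 to 3, 4 to 8 and 9 to 13, against 1.98, 18.04 and 8.15, and 35.5, 23.1, 9.56 and 19.9 for clusters a, b, c and d, against 9.94, 8.05, 2.97 and 7.22. The posterior share of mouse 4 was 26.9% with coding length and 26.5% with no length scaling, against 13.98%, and on both scales the peak group of mice 3 and 4 was 9, not 10 and 7 (peaks were compared across scales after the data were seen). With group 4 counted as anterior, the mean anterior share was 20.1%, against 4.96%. The other 194 values of counts, sums and shares under an alternative kept within the spread between mice or within 1.5 times the count. Leaving out each mouse moved the mean number of detected Hox genes between 9.67 and 17.7, the mean Hox sum between 46.5 and 98.9 CPM, and the mean posterior sum between 2.24 (without mouse 3) and 10.8 CPM per kb. The floor of mouse 4, 0.0334 CPM, lay below the mouse 3 levels of all 7 detected genes of groups 10 to 12. This floor covers counting error alone and not losses before sequencing. Why these genes were not above it in mouse 4 was not tested. No paired analysis was possible because the series holds 1 group of mice, so that no samples share a number across groups.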
